A study of Mus musculus with 6 samples.

Results

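The genes of the DNA replication machinery comprise the subunits and loaders of the replicative helicase, the polymerases, the sliding clamp, the proteins that join and untangle new strands, and the enzymes that supply their nucleotides. A list of 53 such genes was looked up by symbol in the deposited expression table, and all 53 were found among its 21269 genes. They lie on 16 chromosomes. HL-1 cells, a line derived from mouse atrial cardiomyocytes, were plated 24 hours ahead of transfection with a locked nucleic acid (LNA) gapmer at 50 nM and collected 48 hours after it. Gapmers bind a matching RNA, which RNase H then cuts. The LNA Malat1 group received a gapmer against the long noncoding RNA Malat1, the LNA Control group received a control gapmer, and each group has 3 libraries of total RNA, all from this single line. The study asked how the loss of Malat1 changes gene expression in proliferating cardiomyocyte-like cells.

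Before a cell copies its DNA, the origin recognition complex marks start sites, and Cdc6 and Cdt1 load rings of the MCM helicase there. Kinases and the Cdc45 and GINS proteins then switch the helicase on, polymerase alpha-primase lays down short primers, and polymerases delta and epsilon extend them with the help of the clamp Pcna and its loader. Many of these genes are transcribed under the control of E2F factors as cells pass from G1 into S phase, and most mature cardiomyocytes leave the cell cycle after birth and express them weakly.

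The promoters of the genes share short sequence elements that played no part in choosing them. A RefSeq promoter (GRCm38.p6, 250 bases before to 50 after the start) was at hand for 44 of the 53 genes. E2F-type words, taken as TTTCCCGC, TTTGGCGC, TTTCGCGC or TTTGCCGC on either strand, occurred in 16 of these 44 promoters (36.4%), against 2.33% of all 27025 promoters and 4.21% of the promoters of genes tested. In the narrower window from 100 bases before to 50 after the start, 13 of 44 (29.5%) held one, against 1.27% of all promoters. The first 3 sequences below belong to genes that fell in LNA Malat1 and the last 2 to genes that did not pass the test, so that both outcomes can be seen beside the same kind of word. Each shows the 120 bases before the start, read 5′ to 3′ along the gene's strand, with E2F-type words in capitals.
Mcm6: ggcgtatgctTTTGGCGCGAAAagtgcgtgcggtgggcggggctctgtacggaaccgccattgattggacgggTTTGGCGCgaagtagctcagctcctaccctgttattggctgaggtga
Gins3: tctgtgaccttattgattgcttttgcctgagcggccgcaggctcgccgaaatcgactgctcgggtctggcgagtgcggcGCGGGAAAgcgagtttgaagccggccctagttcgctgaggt
Rfc3: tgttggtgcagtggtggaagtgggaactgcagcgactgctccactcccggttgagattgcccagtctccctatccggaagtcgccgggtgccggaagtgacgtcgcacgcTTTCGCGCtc
Orc1: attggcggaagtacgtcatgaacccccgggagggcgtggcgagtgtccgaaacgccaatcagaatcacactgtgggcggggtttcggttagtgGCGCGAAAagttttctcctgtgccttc
Orc3: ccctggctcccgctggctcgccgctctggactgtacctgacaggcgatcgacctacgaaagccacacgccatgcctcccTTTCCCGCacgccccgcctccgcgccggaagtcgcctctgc
These stretches lie at chr1:128359706-128359825 (minus strand) for Mcm6, chr8:95633439-95633558 (plus strand) for Gins3, chr5:151651209-151651328 (minus strand) for Rfc3, chr4:108579334-108579453 (plus strand) for Orc1 and chr4:34614943-34615062 (minus strand) for Orc3. In Mcm6, the helicase subunit, words on opposite strands overlap in the capital run that starts 110 bases before the start, and a further word begins 47 bases before it. The word begins 41 bases before the start in Gins3 and in Orc3, 27 bases before it in Orc1 and 10 bases before it in Rfc3. A CCAAT box on either strand was found in 26 of 44 promoters (59.1%, against 10275 of all 27025). The words TTTGAA or TTCGAA, a form of the cell cycle homology region common in genes of G2 and mitosis, were found in 9 of 44 (20.5%, against 19.5% of all promoters).

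The values are gene counts that the authors scaled with 1 factor per library and then rounded. Their totals lay between 4831007 and 4921406 in LNA Control and between 4758777 and 4762957 in LNA Malat1, and the steps left by the rounding corresponded to about 4511607 to 5594033 reads on genes per library. Malat1 itself was at 5051, 5197 and 4369 in the control libraries (replicates 1, 2 and 3, the order kept throughout), then 2833, 2792 and 2732 after silencing, and every treated library lay below every control library. On the log2 scale the gene differed by -0.80 (limma adjusted p = 7.5e-06, SE 0.07), so 57.2% of the control level remained. LNA Malat1 replicates 1 and 3 differed by less than the sampling noise over 14522 genes (chi-square of 0.949 per gene, chi-square p = 1), although not in the 1754 genes with at least 1600 reads (1.10 per gene, chi-square p = 0.00306). They were counted as 1 sample in each mean ± SD (n = 2), while the test across genes used all 6 libraries. Replicates 1 and 2 of LNA Malat1 showed no clear excess over the noise either, across 14308 genes (1.01 per gene, chi-square p = 0.19). They did in the 1605 genes with at least 1600 reads (1.66 per gene, chi-square p = 5.28e-56). Replicates 2 and 3 differed over 14397 genes (1.16 per gene, chi-square p = 1.1e-38). The n of 2 is thus a choice that this comparison does not settle. The LNA Control libraries differed more, with 1.77 to 4.18 per gene, and the deviation of a library from the others of its group followed the GC content of the genes most strongly in LNA Control replicate 1 (Spearman's rho across 10488 genes of 0.456) and replicate 3 (-0.371). Of the atrial cardiomyocyte markers, 10 of 11 were in the table, with summed counts of 5309 to 5589 in LNA Control and 5030 to 5201 in LNA Malat1. Much of this sum was Ryr2, at 2237 to 2706 per library. Myh6, the alpha myosin heavy chain, was at 0 to 7, Myl7 at 18 to 32 and Myl4 at 30 to 49, and Nppa was not analysed here. Single markers moved in opposite directions. Tnnt2 rose (limma adjusted p = 0.034), Gata4 and Tbx5 fell (limma adjusted p of 0.0079 and 0.045), and the others tested did not pass. Summed markers of other cell types also moved with the groups. Of the fibroblast markers, 5 of 7 were in the table, summing to 5304 to 5911 in LNA Control and 4683 to 4817 in LNA Malat1 (with Col1a2 at 0 or 1). Of the macrophage markers, 2 of 5 were, Cd68 and Csf1r, which summed to 32 to 36 and then 54 to 81. The endothelial markers had 2 of 6 in the table, Pecam1 and Tek, which summed to 19 to 28 and then 32 to 35. Each of these 2 genes overlapped between the groups. The part of these differences in the results on replication genes was not tested.

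Of the 53 replication genes, 19 fell and 1 rose in LNA Malat1 at an adjusted p up to 0.05, and 33 did not pass (limma on log2(normalized count + 1), two-sided, Benjamini-Hochberg adjustment over 15650 genes). The share that fell was 35.8%, where 14.0% of all genes tested fell and 14.3% rose. Since all 53 genes had mean normalized counts above 50, the 10490 genes above that level are the closer background, of which 19.7% fell and 12.2% rose. In the coordinates of mm10, Gins3 spans chr8:95633453-95645060, Prim2 chr1:33453810-33669795, Pold1 chr7:44532746-44548849 and Orc5 chr5:22486485-22550429. The median log2 fold change was -0.10 over the 53 genes, 0.02 over all genes tested and -0.03 over those with a mean of at least 50, and single genes ranged from -0.56 for Gins3 to 0.21 for Orc5. No replication gene passed the adjusted p together with a 1.5-fold change, which 2.92% of all genes did downward. Without LNA Control replicate 1 or without LNA Malat1 replicate 2, Gins3 did, at log2 fold changes of -0.59 and -0.68. In 42 genes the fold change was below 0 and in 11 above. The control and treated libraries did not overlap in 25 genes, 21 of them lower (39.6% of the 53, against 20.8% of all genes and 28.5% of those with a mean of at least 50) and 4 higher (against 20.5% and 17.2%). In these RNA pools, fewer cells in S phase and less RNA per cell cannot be told apart.

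**Figure D1:**
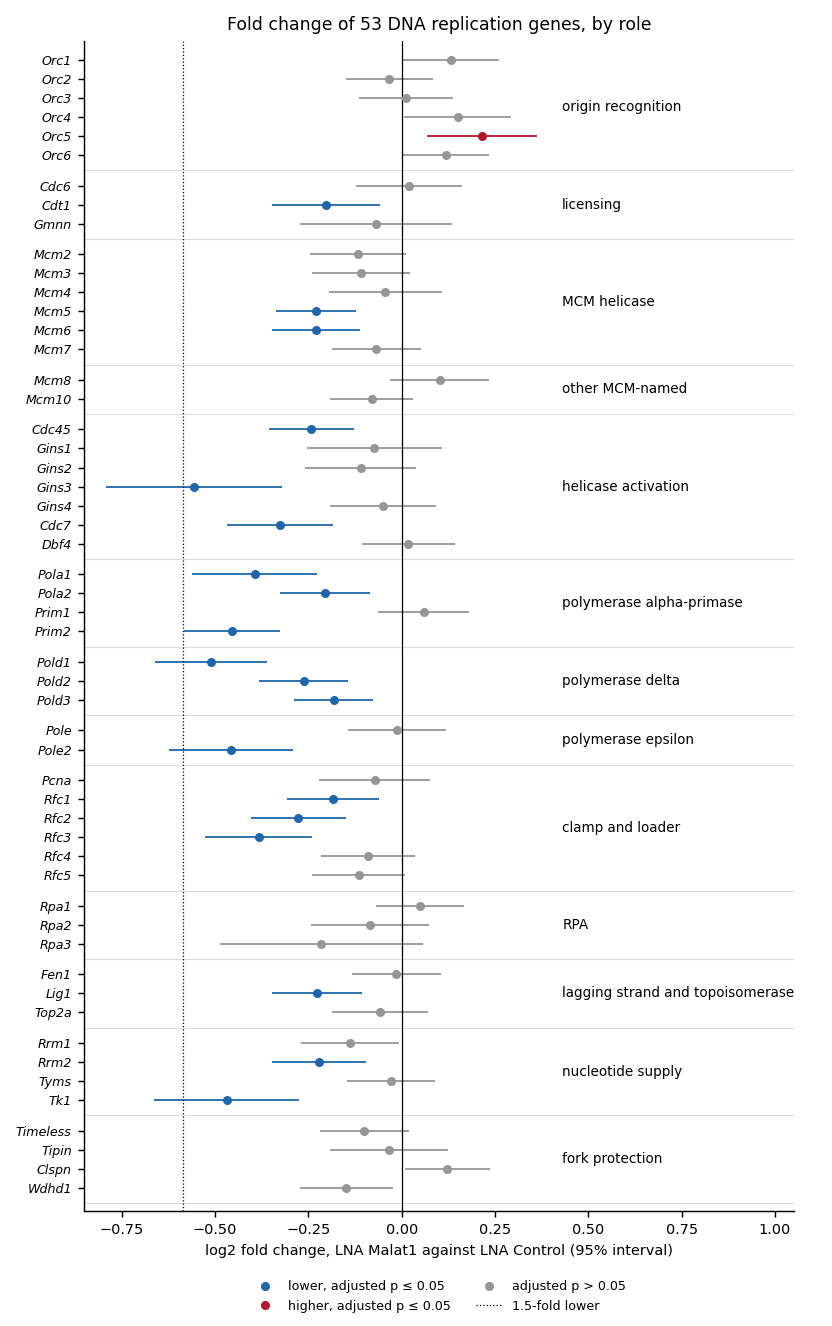
Log2 fold change of LNA Malat1 against LNA Control (x axis, log2 of normalized count + 1) for each of the 53 replication genes, in rows grouped by role, with the limma estimate as a point and its 95% interval as a line. The 19 genes that fell (blue) lie in 9 of the 13 roles, Orc5 (red) is the only gene that rose, and no estimate reaches the dotted line of a 1.5-fold decrease.

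The count of genes that fell depended modestly on the setting. Leaving out 1 library at a time gave 13 to 23, and 12 of the 19 genes passed in all 17 alternatives. The count of genes that rose was less stable, being 0 without any one of 5 libraries (LNA Control replicates 1 and 2 and LNA Malat1 replicates 1, 2 and 3) and 2 without LNA Control replicate 3. Scaling shifted the balance between the directions. With library totals set equal, 17 genes fell and 4 rose, and with quantile normalization 15 fell and 5 rose. The added genes were origin recognition genes and Clspn. The calls over all genes tested shifted too, from 2195 falls and 2231 rises to 1799 and 2620 with equal totals. They were 2105 and 2118 with quantile normalization. When each library's trends on GC content and exonic length were removed, a setting chosen after seeing the data, 18 genes fell and 1 rose. Pola2, Pold3, Rfc1 and Orc5 lost their calls there, and Rfc4, Rpa3 and Clspn gained one.

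No gene of the origin recognition complex fell. Of its 6 subunits, Orc1 to Orc6, none was lower and Orc5 was higher. Orc5 was at normalized counts of 269, 267 and 308 in the control libraries, then 325, 333 and 320 after silencing, with no overlap. The rise was 0.21 on the log2 scale (limma adjusted p = 0.032, SE 0.07). It missed the threshold when any library except LNA Control replicate 3 was left out, with limma adjusted p values of 0.063 and 0.12 without LNA Control replicates 1 and 2 and 0.093, 0.11 and 0.075 without LNA Malat1 replicates 1, 2 and 3. It also missed it when LNA Malat1 replicates 1 and 3 were merged (limma adjusted p = 0.079) and with the trends removed (0.072). Orc4, which had the most counts of the 6, was at 665, 720 and 803 in the control libraries and 829, 807 and 785 after silencing, so the highest control library overlapped the treated ones (log2 fold change 0.15, limma adjusted p = 0.11, SE 0.07). Orc4 passed without LNA Control replicate 3 (0.22, limma adjusted p = 0.009). Orc1, the subunit with the ATPase activity that helps to load the helicase, was at 239, 236 and 235 and then 257, 260 and 261, which do not overlap, yet the difference of 0.13 did not pass (limma adjusted p = 0.12). With library totals set equal, the log2 fold change of Orc1 was 0.17 (limma adjusted p = 0.048) and that of Orc6 0.16 (limma adjusted p = 0.043). Orc2 and Orc3 had log2 fold changes of -0.03 and 0.01.

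Among the licensing genes, Cdt1 fell, while the other two, Cdc6 and the Cdt1 inhibitor Gmnn, did not pass at log2 fold changes of 0.02 and -0.07. Cdt1, which brings the MCM rings to the origin, was at 742, 674 and 614 in the control libraries and at 592, 568 and 599 in LNA Malat1. The groups did not overlap, but the control replicates spread over a wider range than the distance from the lowest of them to the treated libraries. The difference was -0.20 on the log2 scale (limma adjusted p = 0.038, SE 0.07), and it was -0.13 without LNA Control replicate 1 (limma adjusted p = 0.099). The limma adjusted p was also above the threshold without LNA Control replicate 2 (0.10), without LNA Malat1 replicates 1, 2 or 3 (0.10, 0.14 and 0.09), and it was above it in 5 settings of filter, scaling, weights or merged replicates (0.063 to 0.11).

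All 6 subunits of the MCM helicase ring, Mcm2 to Mcm7, had fold changes below 0, and Mcm5 and Mcm6 passed. Mcm5 was at 678, 646 and 672 in the control libraries and 567, 565 and 571 after silencing, and the treated libraries lay within 6 counts of each other, well below the controls. This log2 fold change was -0.23 (limma adjusted p = 0.0044, SE 0.05). Mcm6, whose promoter holds 3 E2F-type words, was at 1574, 1626 and 1507 and then 1366, 1365 and 1283, also with no overlap. Its log2 fold change was -0.23 too (limma adjusted p = 0.0072, SE 0.05), and it missed the threshold only without LNA Malat1 replicate 3 (limma adjusted p = 0.055). The log2 fold changes of Mcm2, Mcm3, Mcm4 and Mcm7 ranged from -0.12 to -0.04 and their groups overlapped. Mcm2 and Mcm3 passed without LNA Control replicate 3, at -0.17 (limma adjusted p = 0.026) and -0.16 (limma adjusted p = 0.044). Of the genes named for the family but outside the ring, Mcm10, which helps to fire the helicase, was at 1096, 1120 and 1041 and then 1020, 1052 and 1008, an overlapping difference of -0.08 (limma adjusted p = 0.27), and Mcm8, a helicase of recombination, differed by 0.10 (limma adjusted p = 0.23).

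The genes that switch the helicase on moved unevenly, and 3 of 7 fell. Gins3, a subunit of the 4-part GINS complex that ties the ring to Cdc45, was at 163, 166 and 182 in the control libraries and 105, 138 and 106 after silencing. The mean went from 170 ± 10 (SD, n = 3) to 122 ± 23 (SD, n = 2), 71.5% of the control, with LNA Malat1 replicate 2 closer to the controls than the other treated libraries. The change came to -0.56 on the log2 scale (limma adjusted p = 0.0024, SE 0.11). Over all 6 libraries this was the lowest log2 fold change of the 53 genes, but with LNA Malat1 replicates 1 and 3 merged it was -0.49, above the -0.54 of Pold1. Pold1 was also the lower of the pair when LNA Control replicate 3, LNA Malat1 replicate 1 or LNA Malat1 replicate 3 was left out (-0.52, -0.52 and -0.57, against -0.51, -0.49 and -0.50). The other GINS subunits, Gins1, Gins2 and Gins4, differed by -0.11 to -0.05 with overlapping groups. Gins2 passed only without LNA Control replicate 3 (-0.18, limma adjusted p = 0.038).

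Cdc45, the partner of GINS on the ring, was at 479, 478 and 456 in the control libraries and 391, 404 and 399 after silencing, a clear gap between the groups. The log2 fold change was -0.24 (limma adjusted p = 0.0045, SE 0.05). Cdc7, the kinase that phosphorylates the ring, was at 421, 397 and 382 and then 325, 296 and 336, with the highest treated library below the lowest control. The log2 difference was -0.33 with an SE of 0.07 (limma adjusted p = 0.0027). Its activating subunit Dbf4 did not pass. Dbf4 was at 1030, 1152 and 1027 and then 1068, 1109 and 1067, and its log2 fold change of 0.02 had a 95% interval from -0.11 to 0.14.

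In polymerase alpha-primase, 3 of the 4 subunits fell. Prim2, the large subunit of primase, was at 504, 572 and 563 in the control libraries and 397, 398 and 399 after silencing, where the libraries were almost equal. Its log2 fold change of -0.45 (limma adjusted p = 0.00013, SE 0.06) had the smallest p of the 53 genes, and its level was 72.8% of the control mean. Pola1, the catalytic polymerase subunit, was at 1207, 1440 and 1542 and then 1031, 1089 and 1051. The control libraries were spread widely but all lay above the treated ones, and the log2 fold change was -0.39 (limma adjusted p = 0.0023, SE 0.08). Pola2, the accessory subunit, was at 807, 721 and 743 and then 665, 641 and 661, again with no overlap. On the log2 scale it differed by -0.21 (limma adjusted p = 0.015, SE 0.06), and it missed the threshold without LNA Malat1 replicate 1, 2 or 3 (limma adjusted p of 0.051, 0.069 and 0.053) with quantile normalization (0.067) and with the trends on GC content and length removed (-0.10, limma adjusted p = 0.16). Prim1, the catalytic primase subunit, was the exception, with a log2 fold change of 0.06 and a 95% interval from -0.06 to 0.18 that does not reach the -0.45 of Prim2.

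The polymerase delta genes in the list all fell, in 3 of 3. Pold1, the catalytic subunit of the polymerase that copies mainly the lagging strand, was at 340, 348 and 337 in the control libraries and 242, 219 and 259 after silencing. The control libraries lay within 11 counts of each other, and the treated mean was 68.7% of theirs (342 ± 5.7, SD, n = 3, against 235 ± 22, SD, n = 2). The difference was -0.51 on the log2 scale (limma adjusted p = 0.00017, SE 0.07). Pold2, an accessory subunit, was at 364, 378 and 360 and then 306, 309 and 303, a narrow spread in both groups, differing by -0.26 on the log2 scale (with limma adjusted p = 0.0037, SE 0.06). Pold3, a further accessory subunit, was at 664, 681 and 652 and then 592, 586 and 581. Its groups did not overlap, and its log2 fold change was -0.18 (limma adjusted p = 0.015, SE 0.05). Pold3 missed the threshold without LNA Control replicate 2 (limma adjusted p = 0.059), without LNA Malat1 replicate 1, 2 or 3 (0.051, 0.052 and 0.06), as well as with quantile normalization (0.068) and the trends removed (0.064).

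In polymerase epsilon, which copies mainly the leading strand, the subunits differed. Pole2, an accessory subunit that is also needed to assemble the active helicase, was at 205, 222 and 241 in the control libraries and 159, 164 and 162 after silencing, and the treated libraries lay close together below all controls. This log2 fold change was -0.46 (limma adjusted p = 0.00085, SE 0.08). Pole, the catalytic subunit, was at 1763, 1820 and 1596 and then 1673, 1770 and 1681. These groups overlapped, and the log2 fold change of -0.01 had a 95% interval from -0.14 to 0.12.

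**Figure D2:**
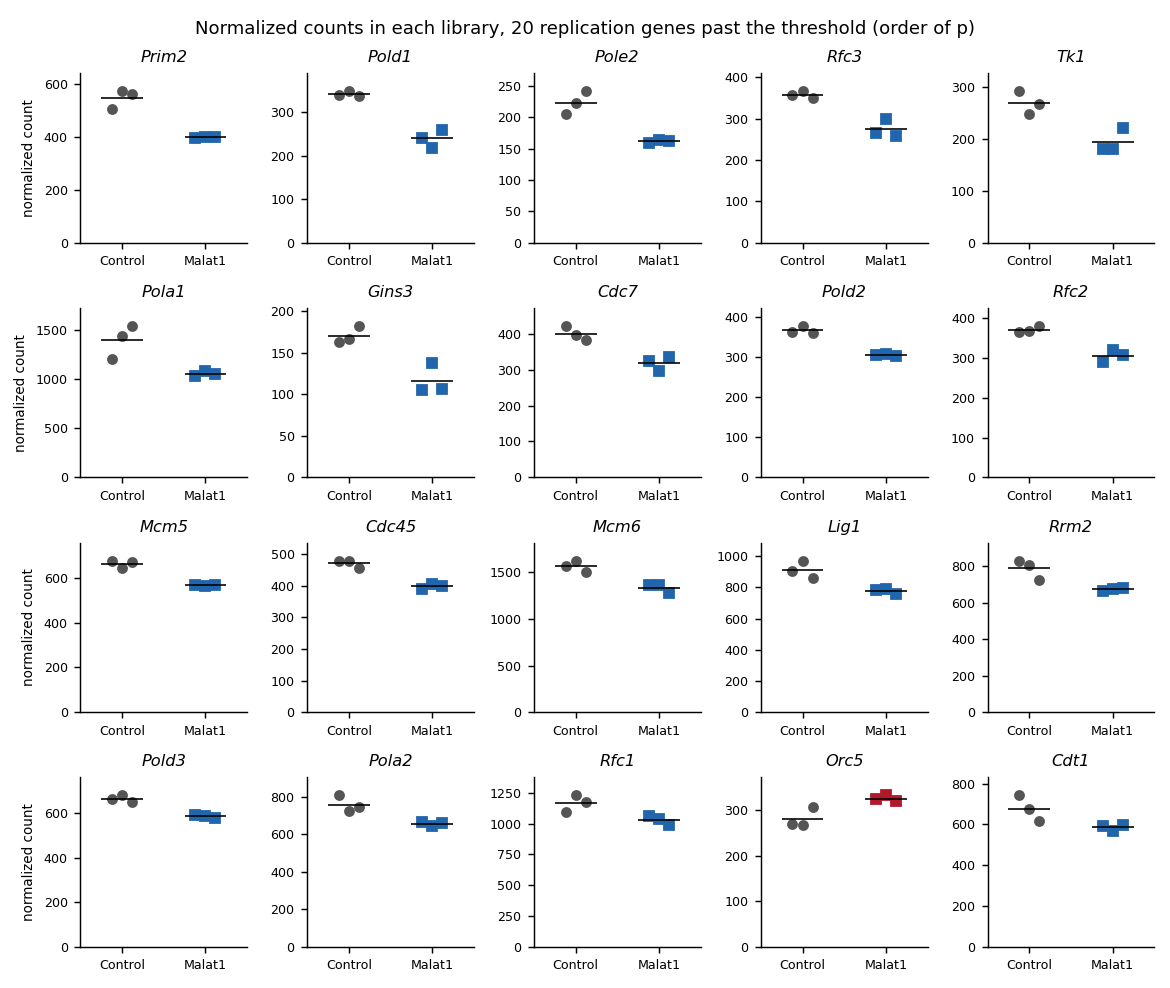
Normalized counts (y axis, starting at 0, with its own scale in each panel) of the 20 replication genes that passed the test, ordered by p, in LNA Control (circles) and LNA Malat1 (squares), with replicates 1, 2 and 3 from left to right and a line at the mean of the 3 libraries. In each panel the groups do not overlap, with the treated libraries below the controls in 19 genes and above them in Orc5.

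The clamp itself did not pass, whereas 3 of the 5 loader subunits fell. Rfc3 was at 357, 366 and 351 in the control libraries and 266, 299 and 259 after silencing, and its highest treated library lay well under its lowest control. The change came to -0.38 on the log2 scale (limma adjusted p = 0.0010, SE 0.07). Rfc2 was at 363, 367 and 379 and then 290, 318 and 307, differing by -0.28 on the log2 scale (with limma adjusted p = 0.0039, SE 0.06). Rfc1, the large subunit that opens the clamp, was at 1096, 1229 and 1177 and then 1059, 1035 and 987, where the closest libraries of the groups were only 37 counts apart. Its log2 fold change was -0.18 (limma adjusted p = 0.030, SE 0.06), and it missed the threshold without LNA Control replicate 2 (limma adjusted p = 0.13), without LNA Malat1 replicate 1, 2 or 3 (0.066, 0.083 and 0.14), with the GC content and length trends removed (0.14) and in 4 settings of scaling, weights or merged replicates (0.058 to 0.088). Rfc4 and Rfc5 differed by -0.09 and -0.11 with overlapping groups, and Rfc4 passed with the GC content and length trends removed (-0.20, limma adjusted p = 0.039). Pcna, the clamp, differed by -0.07 (95% interval -0.22 to 0.08, limma adjusted p = 0.46).

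Single-stranded DNA at the fork is covered by the RPA complex, and none of its 3 genes passed. Rpa1, the large DNA-binding subunit, was at 921, 895 and 857 in the control libraries and 955, 935 and 875 after silencing, so the groups overlapped (log2 fold change 0.05, limma adjusted p = 0.54). Rpa2 and Rpa3 differed by -0.09 and -0.22, the latter at 62 to 86 counts per library, the lowest counts of the list. With the GC content and length trends removed, Rpa3 was at -0.53 (limma adjusted p = 0.013).

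Of the genes that finish and untangle the strands, Lig1 fell and Fen1 and Top2a did not pass. Lig1, the ligase that joins Okazaki fragments, was at 907, 971 and 859 in the control libraries and 785, 790 and 760 after silencing, with no overlap. On the log2 scale the gene differed by -0.23 (limma adjusted p = 0.0094, SE 0.06), and the limma adjusted p was 0.051 with LNA Control replicate 2 left out and 0.055 with LNA Malat1 replicate 3 left out. Top2a, the topoisomerase that separates intertwined chromosomes, had the highest counts of the list, at 3028, 3206 and 2937 and then 2917, 3028 and 2857. Its groups overlapped, and its log2 fold change was -0.06 (limma adjusted p = 0.50). Fen1, the nuclease that removes the flaps of Okazaki fragments, differed by -0.01.

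In nucleotide supply, Tk1 and Rrm2 fell. Tk1, the cytosolic thymidine kinase, was at 291, 247 and 267 in the control libraries and 181, 181 and 220 after silencing, with LNA Malat1 replicate 3 nearer to the controls than the other treated libraries. The difference was -0.47 on the log2 scale (limma adjusted p = 0.0020, SE 0.09). Rrm2, the regulated subunit of ribonucleotide reductase, was at 829, 805 and 725 and then 663, 676 and 679, which did not overlap. This log2 fold change was -0.22 (limma adjusted p = 0.013, SE 0.06), and it missed the threshold without LNA Control replicate 2 (limma adjusted p = 0.06), when LNA Malat1 replicate 1 was left out (0.065), and with LNA Malat1 replicates 1 and 3 merged (0.053). Its partner Rrm1, the large subunit, was at 1344, 1462 and 1305 and then 1250, 1305 and 1179, where the highest treated library equalled the lowest control. The difference of -0.14 did not pass (limma adjusted p = 0.11), but passed without LNA Control replicate 3 (-0.17, limma adjusted p = 0.034) as well as when the replicate number entered as a block (limma adjusted p = 0.047). Tyms, which makes thymidylate, differed by -0.03.

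None of the 4 genes that protect the moving fork passed. Clspn, the checkpoint mediator Claspin, was at 815, 848 and 858 in the control libraries and 959, 894 and 891 after silencing, and every treated library was above every control. The log2 fold change of 0.12 (SE 0.05) did not pass at a limma adjusted p of 0.10. It passed with library totals set equal (0.16, limma adjusted p = 0.037) and with the GC content and length trends removed (0.22, limma adjusted p = 0.0071). Timeless, Tipin and Wdhd1 differed by -0.15 to -0.03, and the groups of Timeless and Wdhd1 did not overlap. Wdhd1 passed without LNA Control replicate 1 (-0.18, limma adjusted p = 0.023).

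The RNAs of subunits of one complex had unequal values when expressed as normalized counts per kilobase of annotated exon, a measure that depends on the annotated length. In LNA Control, the MCM ring genes ranged from 167 ± 4.3 for Mcm5 to 336 ± 13 for Mcm6 (SD, n = 3), a ratio of 2.02, with Mcm3 (271 ± 17) and Mcm4 (272 ± 28) closer to each other than their spread. In the GINS complex, Gins4 was at 249 ± 18 and Gins3, which fell, at 62.9 ± 3.8. In the clamp loader, Rfc4 was at 260 ± 9.4 and Rfc2 at 58.7 ± 1.3. Their control mean counts were 398 and 370, so this gap came mostly from exonic lengths of 1.53 and 6.30 kilobases. In the origin recognition complex, Orc2 was at 176 ± 7.4 and Orc5, the gene that rose, at 45.6 ± 3.7, the lowest level of the list. Top2a had the highest level, at 339 ± 15, which did not differ from that of Mcm6 beyond their spread. The length used is the union of all annotated exons of a gene, from 1.14 to 11.2 kilobases, which understates the level of a gene whose main transcript is shorter.

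The same promoter word stood in genes of either outcome. Among the 44 genes with a promoter, E2F-type words were present in 9 of the 17 that fell, in 7 of the 26 that did not pass and in 0 of 1 that rose. The 9 were Gins3, Pold1, Pole2, Pola1, Rfc3, Mcm6, Mcm5, Cdt1 and Pold3, and the 7 were Mcm3, Mcm7, Orc3, Cdc6, Mcm8, Clspn and Orc1. The median log2 fold change was -0.19 over the 16 genes with a word and -0.09 over the 28 without. Fold changes were below 0 in 11 of the 16 and in 22 of the 28. These values describe the genes, with no test. As printed for Mcm6, Gins3 and Rfc3 on the one hand and Orc1 and Orc3 on the other, a word within 50 bases of the start was present in genes that fell and in genes that did not.

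Some of the genes share exons with neighbours. Their counts, and so their levels per kilobase, are less certain because the sources used here do not say whether the counting used strand. Exons of a gene on the opposite strand cover 84.2% of the exonic length of Fen1 (Tmem258 and Gm10143) and 67.3% of Gins2 (Gse1). They cover 29.8% of Orc2 (Nif3l1), 15.1% of Rfc2 (Lat2) and 12.7% of Rfc4 (Eif4a2), and 12 of the 53 genes have more than 5%. Among the genes that passed, Rfc2 has the most, Cdc45 (Ufd1) and Lig1 (Zswim9) have 5.96% and 5.79%, and Pole2 shares 8.50% with Gm49384 on its own strand. Near-identical copies also matter, since reads that align to several places were left out. Of the stretches of 75 bases in Pcna, 13.8% occur in its pseudogene Pcna-ps2. The median exonic length was 4.27 kilobases and the median GC content 47.9% in the genes that fell, against 4.10 kilobases and 46.7% in the genes that did not pass. Across the 53 genes, the log2 fold change and GC content had a Spearman's rho of -0.22, and over 10488 genes with a mean of at least 50 it was -0.11. These points share the same 6 libraries.

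Genes of replication outside the list of 53 were counted in the same way. Of 45 such genes, 8 fell and 8 rose (17.8% each), near the 19.7% and 12.2% of genes with a mean of at least 50 and the 14.0% and 14.3% of all genes tested, and the median log2 fold change was -0.05. Among the falls with the lowest p were those of Dna2 and Ssrp1. Dna2, a nuclease and helicase that trims long flaps, was at 413, 377 and 400 in the control libraries and 257, 255 and 284 after silencing, and no treated library came near a control. The change came to -0.58 on the log2 scale (limma adjusted p = 3.9e-05, SE 0.06). Ssrp1, a subunit of the histone chaperone FACT, was at 1426, 1474 and 1317 and then 1116, 1168 and 1122 (-0.31, limma adjusted p = 0.0015, SE 0.06). Its groups were also well apart.

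The 3 rises with the lowest p among these 45 genes were those of the checkpoint kinase Atr, its partner Atrip, and Donson, a factor of helicase assembly. Atrip was at 218, 220 and 208 in the control libraries and 260, 286 and 268 after silencing (0.33, limma adjusted p = 0.0025, SE 0.07). Atr was at 710, 869 and 1144 and then 1162, 1287 and 1209, and LNA Control replicate 3 lay just under the treated libraries. Its log2 fold change of 0.45 (limma adjusted p = 0.017, SE 0.12) missed the threshold without LNA Control replicate 2 (limma adjusted p = 0.079) as well as without LNA Malat1 replicate 1, 2 or 3 (0.053, 0.084 and 0.071), and with replicates 1 and 3 merged (0.066). It was 0.29 without LNA Control replicate 1. Donson was at 330, 344 and 333 and then 405, 397 and 363 (0.21, limma adjusted p = 0.021, SE 0.06), which missed it without LNA Malat1 replicate 1 or 2 (limma adjusted p of 0.10 and 0.083). The count of rises was 1 to 8 with a library left out, with 2 without LNA Control replicate 2, 2 without LNA Malat1 replicate 1, 1 without replicate 2 and 2 without replicate 3. The count of falls was 5 without LNA Malat1 replicate 1. With quantile normalization 6 fell and 11 rose.

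Genes of G2 and mitosis were set beside the replication genes because they mark later phases of the cycle. Of 20 such genes, 5 fell and 2 rose (25% and 10%), near the 19.7% and 12.2% of genes with a mean of at least 50, and the median log2 fold change was -0.11. Fold changes were below 0 in 15 of the 20 genes. The groups did not overlap in 9 lower genes (45%) and 1 higher, against 28.5% and 17.2% at that mean. Of the 53 replication genes, 39.6% were lower without overlap, and their median was -0.10. Ccna2, the cyclin of S and G2 phase, was at 1168, 1139 and 1035 in the control libraries and 897, 976 and 920 after silencing, with no overlap (-0.26, limma adjusted p = 0.0064, SE 0.06). Aurka, a spindle pole kinase, was at 632, 649 and 597 and then 546, 547 and 535 (-0.20, limma adjusted p = 0.012, SE 0.05). Bub1b, a spindle checkpoint protein, was at 1120, 1151 and 1116 and then 987, 1004 and 985 (-0.19, limma adjusted p = 0.012, SE 0.05). Each of these treated libraries lay below its controls, but Aurka missed the threshold without LNA Control replicate 2 or LNA Malat1 replicate 3 (limma adjusted p of 0.055 and 0.054). Bub1b missed it without LNA Malat1 replicate 1 or 3 (limma adjusted p of 0.06 and 0.055) and with these 2 replicates merged (0.051). It also missed it, just above 0.05, when LNA Control replicate 2 was left out.

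The rises were those of Cenpf and Bub1, proteins of the kinetochore. Cenpf was at 735, 1346 and 1686 in the control libraries and 1846, 1804 and 1774 after silencing, with LNA Control replicate 1 far below the other controls. Its log2 fold change was 0.61 (limma adjusted p = 0.045, SE 0.21), 0.26 without LNA Control replicate 1 and 0.86 without LNA Control replicate 3, and it missed the threshold without LNA Control replicate 2 (limma adjusted p = 0.084) as well as without LNA Malat1 replicate 1, 2 or 3 (0.14, 0.13 and 0.13), and in 4 settings of pseudocount, filter or merged replicates (0.051 to 0.15). Bub1 was at 478, 504 and 611 and then 603, 631 and 617, which overlap (0.22, limma adjusted p = 0.049, SE 0.08), and it missed the threshold when any library except LNA Control replicate 3 was left out (limma adjusted p of 0.11 to 0.18), and in 4 settings of pseudocount, filter, scaling or merged replicates (0.054 to 0.13). It was 0.33 without LNA Control replicate 3. Mki67, the proliferation marker, differed by 0.12 and did not pass (limma adjusted p = 0.41). With a library left out, between 1 and 7 of the 20 genes fell. The count was 1 without LNA Control replicate 2 or LNA Malat1 replicate 3, and 2 without LNA Malat1 replicate 1. With library totals set equal, 3 fell and 2 rose.

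**Figure D3:**
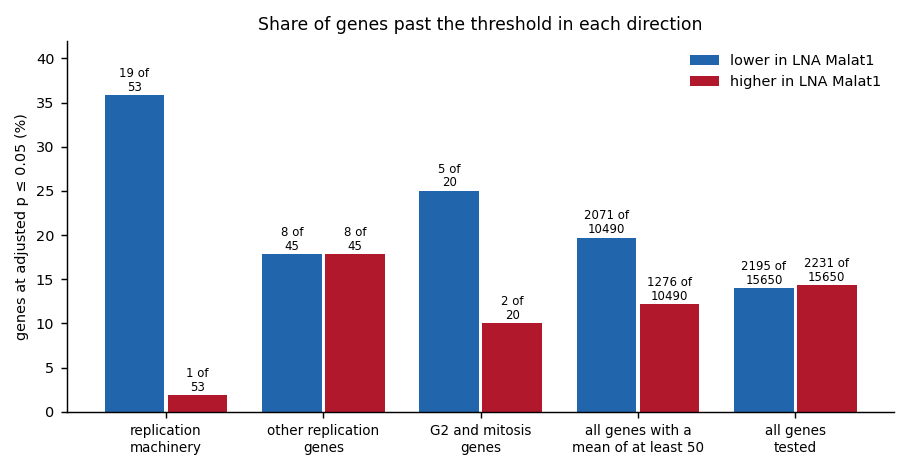
Percentage of genes at an adjusted p of at most 0.05 (y axis) that were lower (blue) or higher (red) in LNA Malat1, for the 53 replication genes, the 45 other replication genes, the 20 genes of G2 and mitosis, the 10490 genes whose mean normalized count was 50 or more and all 15650 genes tested, with counts above the bars. The replication genes had 35.8% lower and 1.89% higher, the other replication genes 17.8% in each direction, and all genes tested 14.0% lower and 14.3% higher.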

How the data were processed

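RNA of HL-1 cells was sequenced in 3 libraries per group, with a kit that keeps strand and single-end reads of 75 bases. According to the methods and the submitters' processing notes, the authors trimmed reads with Trimmomatic 0.39, aligned them to mm10 with STAR 2.7.7a, counted reads on exons with featureCounts 1.6.5, dropped reads on several genes or places, and used DESeq2 1.30.0. The deposited values are a score rather than raw counts: counts normalized by 1 factor per library and rounded.

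The 15650 of 21269 genes whose mean normalized count reached 5 went into limma 3.58.1 (R 4.3.3, lmFit, eBayes with an intensity trend) on log2(normalized count + 1), with adjusted p at most 0.05. Fold changes are on that scale. For single values, 3 against 3 libraries allow no exact permutation p under 0.1. Labels do not say whether libraries came from separate cultures, so p-values measure the spread between these libraries. Reads per library were approximated from rounding steps, with LNA Malat1 replicate 2 least certain. Counting errors only are covered by the chi-square comparison.

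The members and lists were chosen with earlier results of these data known. The genes named with values in each library were Malat1, every replication gene past the threshold, the gene with the highest mean in each role and, in the other lists, the 3 with the lowest p per direction. A gene that this rule names is not reported here. Further names, for levels, promoters, shared exons and calls under alternatives, were chosen after the values were seen. Positions match GENCODE M21 for all 53 genes, from which lengths and GC content were taken. The test was checked on simulated data with the same spread in every library, which these libraries do not have. Its rule for detection covered only changes larger than those of the 53 genes. Alternatives were the replicate block, other pseudocounts, filters, scalings and fold minimums, voom on approximate reads, LNA Malat1 replicates 1 and 3 as 1 sample, each library left out, and GC content and length trends removed.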

Additional observations from a re-analysis of the deposited data

How the results depend on the processing

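The 19 replication genes that fell numbered 13 to 23 with each library left out in turn and 15 to 20 under the other alternatives, and no gene named with a change reversed its direction. Over all 15650 genes tested, 1509 to 2354 fell and 1311 to 2601 rose with a library left out. Over 17 alternatives, 8 of the 20 replication genes past the threshold lost it at least once (43 calls lost), and 11 of the 33 that had not passed did so at least once (20 calls gained). The replication genes that rose numbered 0 to 2 with a library left out, 0 with LNA Malat1 replicates 1 and 3 as 1 sample, 4 with library totals set equal or voom on approximate reads, and 5 with quantile normalization. Between 0 and 1 passed a 1.5-fold change with a library left out, and 0 passed a 2-fold change. The median log2 fold change of replication members was -0.1378 to -0.0676 with a library left out, -0.0633 with equal totals, -0.0609 with voom and -0.0452 with quantile normalization. For the other replication genes, 5 to 10 fell and 1 to 8 rose with a library left out, 3 rose with the merged sample and 4 with no filter on low values. For genes of G2 and mitosis, 1 to 7 fell and 0 to 3 rose with a library left out, 2 fell and 0 rose with the merged sample, and 3 fell with equal totals, quantile normalization or voom. The rises numbered 0 at a pseudocount of 0.1 or with no filter, and 1 with a mean of at least 50 or median-of-ratios scaling. The cause of these shifts was not tested. The merged and left-out settings also have fewer samples than the main one.

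With the replicate number as a block, 20 replication genes fell and 1 rose. Same-numbered libraries had correlated deviations of 0.086, 0.182 and 0.083 over 10490 genes, which are not all above 0.1, so the numbers were not taken to pair the libraries. Every library did correlate best with its own number. The removal of GC content and length trends was chosen after seeing that the LNA Control libraries differed along GC content, and it gave 18 falls, with Pola2, Pold3 and Rfc1 lost and Rfc4 and Rpa3 gained. With about 4511607 to 5594033 reads per library, the standard errors of the 53 fold changes ran from 0.05 to 0.13 on the log2 scale, which limits what could be detected.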
